A study of Mus musculus with 4 samples.

Results

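Ribosomal protein genes and their processed pseudogenes were followed in 4 RNA-seq libraries of regenerating mouse digit tips. The 110 members were taken from the 45706 genes of the table by name: 89 parent genes, whose symbols begin with Rpl or Rps and carry no pseudogene suffix (the Rps6 kinases were left out), and 21 named pseudogenes whose counts summed to 100 or more over the 4 libraries. A further 235 named ribosomal protein pseudogenes fell outside: 121 had no counts at all and 114 had fewer than 100. The pseudogenes were thus selected on measured values, their summed counts, and 10 of the 21 reached 100 only with the wildtype library, so the choice favoured copies that were high in wildtype. The last members inside were Rps16-ps2 with 118 counts and Rpl14-ps1 with 101, and the first outside were Rps23-ps1 with 98 and Rpl9-ps6 with 97.

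Each ribosome joins a large (60S) and a small (40S) subunit, and every subunit protein is encoded in the mouse by a widely expressed gene whose messenger RNA is among the most abundant in the cell. These short, abundant messages have been copied back into the genome many times during evolution, which left processed pseudogenes without introns that can match the parent's coding sequence almost base for base. A sequenced fragment from such a stretch fits both loci, and counting programs divide such fragments by estimation.

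The 4 groups held 1 library each, from digit tips collected 14 days after amputation. They were wildtype and conditional knockouts (cKO) of Sp6, of Sp8, or of both genes (Sp6+Sp8 cKO). Sp6 and Sp8 are related zinc-finger transcription factors of the limb and digit epidermis. Per the labels' protocols, deletion was induced with tamoxifen at 75 mg/kg on each of 5 days, with 5 days of rest ahead of amputation, and tissue proximal to the last joint of the digit was removed. The labels put the 3 cKO libraries in batch 1 and the wildtype library in batch 3, so against wildtype the batch and the knockout cannot be told apart. The sources used here do not state the Cre driver, strain, age, sex, number of animals or digits per library, or whether wildtype mice received tamoxifen. All libraries came from poly-A RNA and kept strand. Each group being a single library, no difference has a replicate check or a p-value, and a comparison describes a pair of libraries. The 3 comparisons with wildtype share that library.

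Library totals ran from 12588511 counts in Sp8 cKO to 21834883 in wildtype, and 3 counts corresponded to between 0.138 and 0.238 CPM (counts scaled to library size). Sp6 stood at 97.7, 29.2, 95.6 and 57.8 CPM in the libraries of wildtype and of the Sp6, Sp8 and Sp6+Sp8 cKO, the order used for every list of 4 values below, and Sp8 at 63.9, 66.1, 16.8 and 13.4 CPM. The shortfall of the targeted transcripts was thus partial in each cKO library, and smallest for Sp6 in the Sp6+Sp8 cKO library. Markers of keratinocytes, nail and hair cortex, osteoblasts, fibroblasts, endothelium, leukocytes and red cells all reached 1 CPM in each library, and 0 of 4 skeletal muscle markers did. The summed suprabasal keratinocyte markers were 17843, 17703, 14236 and 12889 CPM, the nail and hair cortex markers 3855, 4108, 4521 and 1907 CPM and the red cell markers 262, 336, 687 and 349 CPM. Fewer cells of a type and less RNA per cell cannot be told apart in such bulk tissue. The part of these differences in the results below was not tested.

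Sequence shows how close the copies are. The stretches of 90 bases below hold some of the differences between parent and copy for 5 of the copies that were lower in the cKO libraries. They are from GENCODE M21 on GRCm38, written 5′ to 3′ on the strand of the gene, and capitals mark the bases at which parent and copy differ. Rpsa-ps10 (chr3:150073316-150073405, minus strand) differs from the parent at 6 of 888 coding bases, Rpl3-ps1 (chrX:13202572-13202661, plus strand) at 2 of 1212, Rps3a2 (chr14:88123133-88123222, minus strand) at 4 of 795, Rps2-ps13 (chrX:52898590-52898679, plus strand) at 7 of 882 and Rpl35a-ps6 (chr5:123255650-123255739, minus strand) at 1 of 333. In the first 3 a further 3 bases of the parent or copy fall in gaps of the alignment.
Rpsa: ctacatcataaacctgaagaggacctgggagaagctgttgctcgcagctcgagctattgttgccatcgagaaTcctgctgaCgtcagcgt
Rpsa-ps10: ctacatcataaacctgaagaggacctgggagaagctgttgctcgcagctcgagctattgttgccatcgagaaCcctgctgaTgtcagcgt
Rpl3: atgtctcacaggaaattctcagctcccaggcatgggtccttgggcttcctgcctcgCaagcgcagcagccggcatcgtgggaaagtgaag
Rpl3-ps1: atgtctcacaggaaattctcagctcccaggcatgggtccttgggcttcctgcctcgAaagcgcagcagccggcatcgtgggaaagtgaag
Rps3a1: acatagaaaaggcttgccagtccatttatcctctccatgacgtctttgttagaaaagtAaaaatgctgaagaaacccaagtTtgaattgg
Rps3a2: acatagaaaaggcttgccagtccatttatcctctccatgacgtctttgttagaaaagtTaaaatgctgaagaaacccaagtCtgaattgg
Rps2: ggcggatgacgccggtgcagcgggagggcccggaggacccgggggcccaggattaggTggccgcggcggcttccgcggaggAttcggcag
Rps2-ps13: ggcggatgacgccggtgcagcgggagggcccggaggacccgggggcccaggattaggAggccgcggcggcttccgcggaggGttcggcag
Rpl35a: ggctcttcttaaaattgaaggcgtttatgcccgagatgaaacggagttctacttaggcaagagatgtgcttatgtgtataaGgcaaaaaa
Rpl35a-ps6: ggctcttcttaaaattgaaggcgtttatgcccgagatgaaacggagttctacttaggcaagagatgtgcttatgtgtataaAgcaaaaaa
Predicted genes of the annotation can be equally close. Those matched to a parent here covered at least 90% of its coding sequence at 95% identity or more. Gm8210 (chr1:43189156-43189245, plus strand) and Gm13841 (chr5:115802070-115802159, minus strand) each differ from Rpl29 at 3 of 483 bases and carry the same letter in the stretch shown, and Gm15772 (chr5:3236526-3236615, plus strand) differs from Rpl26 at 2 of 438.
Rpl29: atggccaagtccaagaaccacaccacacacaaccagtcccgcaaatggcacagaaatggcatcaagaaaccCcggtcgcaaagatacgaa
Gm8210: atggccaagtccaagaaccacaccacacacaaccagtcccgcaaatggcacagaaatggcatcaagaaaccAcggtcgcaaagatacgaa
Gm13841: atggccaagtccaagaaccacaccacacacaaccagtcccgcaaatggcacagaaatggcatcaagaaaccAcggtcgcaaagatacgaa
Rpl26: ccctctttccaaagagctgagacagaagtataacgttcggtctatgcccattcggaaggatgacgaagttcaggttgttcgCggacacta
Gm15772: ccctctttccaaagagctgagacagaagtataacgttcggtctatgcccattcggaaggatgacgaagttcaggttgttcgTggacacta
Rps6-ps4 (chr2:75191733-75191822, minus strand) has no difference from Rps6 in all 750 coding bases, so no letter separates the pair.
Rps6: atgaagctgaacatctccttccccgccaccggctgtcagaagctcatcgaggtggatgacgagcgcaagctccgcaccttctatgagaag
Rps6-ps4: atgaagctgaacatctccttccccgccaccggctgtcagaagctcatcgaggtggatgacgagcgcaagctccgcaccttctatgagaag

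The parent genes of both subunits were at nearly the same level in the 4 libraries. They were divided into 74 core genes (43 of the 60S and 31 of the 40S subunit), 10 paralogs or partners and 5 retrocopies that carry parent-like names (Rps3a2, Rps3a3, Rpl37rt, Rps12l1 and Rps12l2), the last set apart after the names and counts were seen. Summed over all 89, parents were at 17476, 17729, 18019 and 17224 CPM. The largest difference from wildtype was that of Sp8 cKO, 1.03-fold higher (exact Clopper-Pearson 95% interval 1.03 to 1.04, counting error only), a log2 ratio of 0.04. Sp6 cKO was at 0.02 and Sp6+Sp8 cKO at -0.02 on the same log2 scale, the last changing sign with library totals (0.008). Core genes of the 40S subunit summed to 7128, 7150, 7441 and 6874 CPM and those of the 60S subunit to 10131, 10460, 10468 and 10223, so the ratio of the sums was 0.704, 0.684, 0.711 and 0.672.

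Gene by gene, the size rule asked for a log2 ratio of CPM (prior count 2) of 1 or more in either direction, at least 1 CPM in either library and a 95% interval of the ratio that excluded 1. In Sp6 cKO, 1 of 89 parents was higher than in wildtype and 2 were lower, against 2.24% and 2.16% of the 16884 genes compared. The same counts were 1 and 2 in Sp8 cKO (2.27% and 1.55% of 16878 genes) and 1 and 3 in Sp6+Sp8 cKO (2.84% and 2.95% of 16861). Rpl29 was the higher gene in each, Rps3a2 and Rps3a3 were the lower ones, and Rps2 joined them in Sp6+Sp8 cKO. Between cKO libraries, all of batch 1, 0 parents passed the rule, where 3.1% of all genes did for Sp8 cKO against Sp6 cKO, 3.97% for Sp6+Sp8 cKO against Sp6 cKO and 4.68% for Sp6+Sp8 cKO against Sp8 cKO.

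A looser fold of 1.5 added few core genes. Past it were 3 of 74 core genes in Sp6 cKO against wildtype (9.09% of all genes), 1 in Sp8 cKO (8.16%) and, for the double knockout Sp6+Sp8 cKO, 2 (13.8%). Within batch 1 the counts were 1 for Sp8 cKO against Sp6 cKO (6.02%), 0 for Sp6+Sp8 cKO against Sp6 cKO (9.53%) and 1 for Sp6+Sp8 cKO against Sp8 cKO (10.9%). The genes were Rpl29, Rpl26 and Rps2 alone. The median log2 ratio of the core genes was -0.05, -0.03 and -0.11 against wildtype, beside -0.01, -0.01 and -0.02 over all genes compared. A further 3729 genes had a mean CPM at or above the 10th percentile of the core genes, with no upper limit and no matching of levels. Of these, 3.11%, 2.33% and 6.01% passed the 1.5-fold rule against wildtype, beside 4.05%, 1.35% and 2.70% of the core genes.

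**Figure D1:**
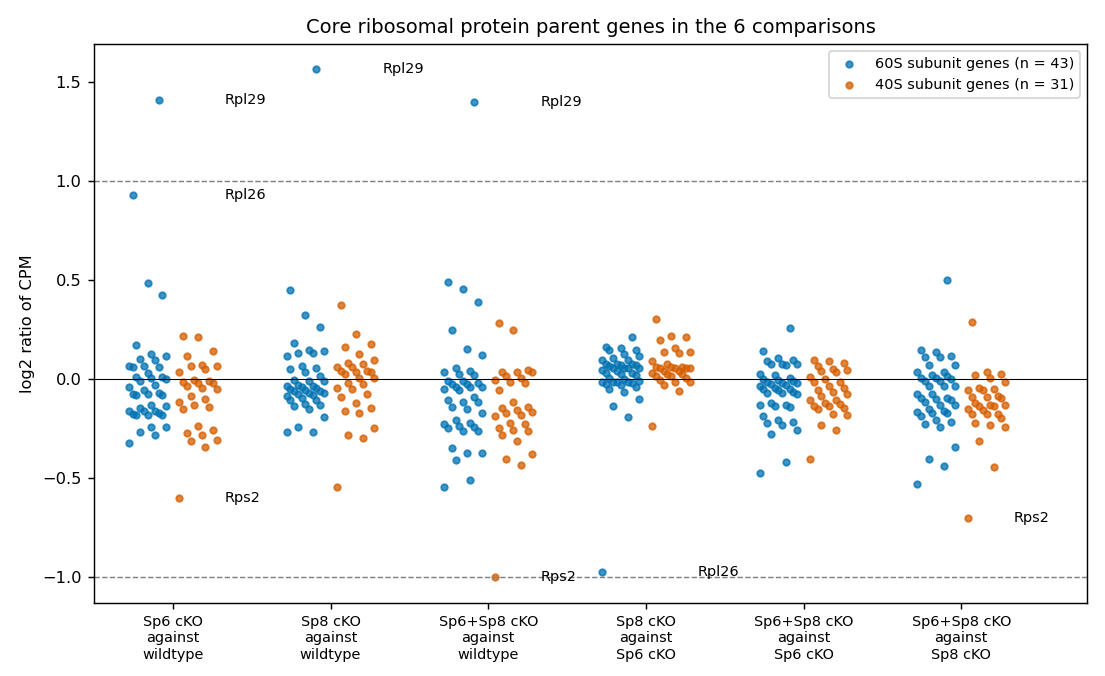
Log2 ratio of CPM of each of the 74 core ribosomal protein parent genes (1 point per gene) in the 6 comparisons, with genes of the 60S subunit on the left and of the 40S subunit on the right of each pair; dashed lines mark a log2 ratio of 1 in either direction and genes past 1.5-fold are named. Most genes lie within 0.5 of 0, and Rpl29 stands apart in all 3 comparisons with wildtype, between 1.40 and 1.57.

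Rpl29, a heparin-binding protein of the 60S subunit (GRCm38 chromosome 9, 106429454 to 106431568), had 1780, 2808, 3056 and 3332 counts, or 81.9, 218, 243 and 217 CPM. The wildtype library was thus below the 3 others, which lay close together. The parent gene was 2.66-fold higher in Sp6 cKO than in wildtype (95% interval 2.51 to 2.82), 2.96-fold higher in Sp8 cKO (2.79 to 3.14) and 2.65-fold higher in Sp6+Sp8 cKO (2.50 to 2.80). Rpl26, which sits near the exit of the ribosomal tunnel, was at 137, 260, 132 and 187 CPM, high in the Sp6 cKO library and intermediate in Sp6+Sp8 cKO. Its log2 ratio was 0.93 for Sp6 cKO against wildtype and -0.98 for Sp8 cKO against Sp6 cKO, both just inside the size rule. Rps2, a protein of the 40S subunit near the messenger RNA entry channel (chromosome 17, 24718116 to 24721929), was at 160, 106, 131 and 80.1 CPM. It was 2.00-fold lower in Sp6+Sp8 cKO than in wildtype (95% interval 1.88 to 2.14), a log2 ratio of -1.001 at the edge of the rule. With DESeq2 size factors the ratio was -0.988, with library totals -0.973 and with totals without the 20 most abundant genes -0.954, each inside the rule.

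Other core genes that lay furthest from wildtype did so by less. Rpl3, a protein of the peptidyl transferase region, had log2 ratios of 0.48, 0.45 and 0.49 in the 3 cKO libraries. Rpl35a stood at 0.42, 0.32 and 0.39, and Rpsa, also known as the laminin receptor, at 0.22, 0.37 and 0.28. Rpl34 was the remaining one among the 5 highest, at 0.26 in Sp8 cKO. At the low end, Rpl37a was at -0.32, -0.27 and -0.51. Rps27a, made as a fusion with ubiquitin, was at -0.31 in Sp6 cKO and -0.55 in Sp8 cKO, from 354 counts in wildtype. Rps21 was at -0.34 and -0.28 in these libraries, Rps14 at -0.31 in Sp6 cKO and Rpl23 at -0.26 in Sp8 cKO. In Sp6+Sp8 cKO, Rpl28, Rps15 and Rpl37 were at -0.55, -0.43 and -0.41.

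Levels differed far more between the genes than between libraries. Core genes of high mean CPM included Rps3a1 (910), Rpl4 (867), Rpl7 (592) and Rpl6 (575), and the lowest were Rpl36a (8.85), Rps27a (13.5), Rpl37a (15.8), Rps21 (31.9) and Rpl37 (34.5). Longer messages yield more fragments, so levels are better compared per length. Per kilobase of the annotated principal transcript the median core gene was at 277 CPM, with Rps3a1 at 932 near the top and Rpl36a at 18.3 as the lowest. Rps20, at 19.6, was divided by an annotated transcript of 3706 bases. In 71 of the 74 core genes at least 1 library had an estimated count that was not a whole number, as results when fragments are shared between genes.

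The paralogs and partners stayed within the rule in the 6 comparisons. This group kept Rps4l, which the annotation lists as a transcribed processed pseudogene. It also kept Rps27rt, of which 87.1% of 150-base stretches occur in another annotated transcript. Neither was added to a family below. Rps27l, a paralog of Rps27, was at 29.6, 33.8, 25.4 and 35.6 CPM, Rpl7l1 at 27.6, 29.8, 27.6 and 28.5, and Rpl22l1, the paralog of Rpl22, at 24.01, 20.1, 20.7 and 24.05. Rpl36al was at 14.99, 10.8, 12.9 and 10.2 CPM, and Rps19bp1, a binding partner of Rps19, at 6.07, 6.36, 5.48 and 7.08. Rpl3l, a paralog known from striated muscle, had at most 3 counts in any library, and Rpl39l, known from testis, at most 8. Rpl10l, Rps12l1 and Rps12l2 had 0 counts in every library.

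Pseudogenes, unlike their parents, differed widely between libraries. The 21 summed to 607, 202, 189 and 192 CPM, so wildtype was high and the cKO libraries were alike. The sum was 3.00-fold lower in Sp6 cKO than in wildtype (95% interval 2.88 to 3.13), 3.22-fold lower in Sp8 cKO (3.08 to 3.36) and 3.16-fold lower in Sp6+Sp8 cKO (3.03 to 3.29). The pseudogenes took 3.35% of the members' counts in wildtype and between 1.04% and 1.13% in the others. A pair of pseudogenes carried most of this sum: without Rpsa-ps10 the log2 ratios were -0.88, -0.98 and -0.95 in place of -1.59, -1.69 and -1.66, and without Rpsa-ps10 and Rpl3-ps1 they were -0.04, -0.22 and -0.01. The 114 pseudogenes below 100 counts summed to 31.6, 27.8, 28.9 and 32.9 CPM. Parents and pseudogenes together had log2 ratios to wildtype of -0.01, 0.01 and -0.05.

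In Sp6 cKO, 8 of 21 pseudogenes were lower than in wildtype past the size rule and 1 was higher. The counts were 9 lower and 2 higher in Sp8 cKO and 8 lower and 1 higher in Sp6+Sp8 cKO. Beside the background of 1.55% to 2.95% of genes in a direction these shares are large, but the choice by summed counts favoured members high in the deepest library, wildtype, and they are given as a description. Those lower in all 3 numbered 7, the 1 higher in all 3 was Rps2-ps10, 4 differed in some, and 9 stayed within the rule against wildtype. Of the 7, only Rpl3-ps1 reached 100 counts in the cKO libraries alone. The others, Rpl17-ps5, Rpl35a-ps6, Rps2-ps13, Rps24-ps3, Rps26-ps1 and Rpsa-ps10, reached 100 only with wildtype, so the choice itself favoured their being lower elsewhere. Within batch 1, where depth was similar, 1 of 21 was past the rule for Sp8 cKO against Sp6 cKO (3.1% of all genes), 3 for Sp6+Sp8 cKO against Sp6 cKO (3.97%) and 1 for Sp6+Sp8 cKO against Sp8 cKO (4.68%); 17 of the 21 reached 1 CPM in these pairs.

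**Figure D2:**
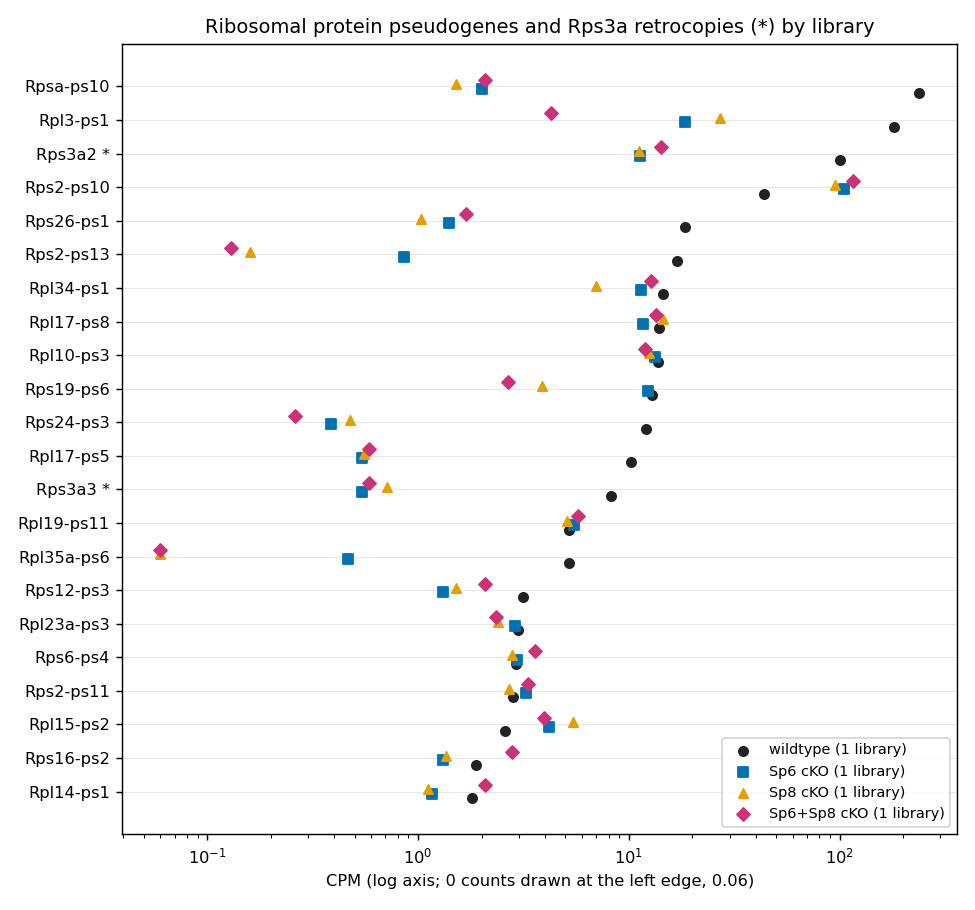
CPM (log axis) of all but 1 of the 21 pseudogenes and of the retrocopies Rps3a2 and Rps3a3 in the 4 libraries, 1 point per library, ordered by the wildtype level; a library with 0 counts is drawn at the left edge. Rpsa-ps10 falls from 239 CPM in wildtype to about 2 CPM or less elsewhere, whereas Rps2-ps10 is lowest in wildtype, at 43.5 CPM.

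Pseudogenes of 40S parents held the largest difference. Rpsa-ps10 (chromosome 3, 150072658 to 150073542, minus strand, in no annotated gene) had 5189 counts in wildtype and 26, 19 and 32 in the cKO libraries, whose values do not come near that of wildtype. It was 118-fold lower in Sp6 cKO (95% interval 80.7 to 181), 158-fold lower in Sp8 cKO (101 to 263) and 115-fold lower in Sp6+Sp8 cKO (81.2 to 168). Rps2-ps13, on the X chromosome, had 367, 11, 2 and 2 counts. It was 19.8-fold lower in Sp6 cKO (10.9 to 40), and its ratio in Sp6+Sp8 cKO, 130-fold lower, has a counting interval of 35.7 to 1076. Rps26-ps1 had 402, 18, 13 and 26 counts and Rps24-ps3, also X-linked, 262, 5, 6 and 4. Both parents, Rps26 and Rps24, encode 40S proteins that are mutated in Diamond-Blackfan anaemia, an inherited failure of red cell production. The log2 ratios to wildtype were -3.61, -4.00 and -3.36 for Rps26-ps1 and -4.56, -4.33 and -4.97 for Rps24-ps3.

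Of the retrocopies named like parents, Rps3a2 and Rps3a3 were also far higher in wildtype than in the cKO libraries. Rpl37rt was not, at 0.92, 0.70, 1.11 and 0.84 CPM. Rps3a2 had 2187 counts in wildtype and 145, 141 and 219 in the cKO libraries, and was 8.95-fold lower in Sp6 cKO (95% interval 7.56 to 10.7), 8.99-fold lower in Sp8 cKO and 7.07-fold lower in Sp6+Sp8 cKO (6.15 to 8.16). Rps3a3 had 179, 7, 9 and 9 counts. Both are processed pseudogenes in the annotation, on chromosomes 14 and 13, so they account for the lower genes among the parents except Rps2.

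Among pseudogenes of 60S parents, Rpl3-ps1 (chromosome X, 13202571 to 13203780) had 3939, 239, 339 and 66 counts. It was 9.78-fold lower in Sp6 cKO than in wildtype (8.58 to 11.2), 6.73-fold lower in Sp8 cKO (6.02 to 7.54) and 42.2-fold lower in Sp6+Sp8 cKO (33.1 to 54.7). It also differed inside batch 1, where Sp6+Sp8 cKO was 4.32-fold below Sp6 cKO (3.28 to 5.76) and 6.27-fold below Sp8 cKO (4.81 to 8.30). Of the 150-base stretches of Rpl3-ps1, 94.5% also occur in another annotated transcript, and these intervals leave out how shared fragments were divided. Rpl17-ps5 had 223, 7, 7 and 9 counts. Rpl35a-ps6 had 113 counts in wildtype, 6 in Sp6 cKO and 0 in the other libraries, at least 21.8-fold lower in Sp8 cKO and at least 26.7-fold lower in Sp6+Sp8 cKO, set against 3 counts in each.

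Rps2-ps10 went the other way (chromosome 18, minus strand, opposite the Pde6a gene). Its counts were 945, 1352, 1201 and 1769, or 43.5, 105, 95.3 and 115 CPM, with wildtype the lowest. It was 2.41-fold higher in Sp6 cKO (95% interval 2.22 to 2.62), 2.19-fold higher in Sp8 cKO (2.01 to 2.39) and 2.65-fold higher in Sp6+Sp8 cKO (2.44 to 2.87). In Sp6+Sp8 cKO this copy had more counts than Rps2 itself, which had 1232. Of the 150-base stretches of Rps2-ps10, 82.6% also occur in another annotated transcript, and the intervals leave out how shared fragments were divided.

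Some pseudogenes split the cKO libraries. Rps19-ps6, whose parent is the most often mutated gene in Diamond-Blackfan anaemia, had 281, 159, 49 and 41 counts, or 12.9, 12.3, 3.89 and 2.66 CPM. Wildtype and Sp6 cKO were thus near each other, and Sp8 cKO was 3.17-fold below Sp6 cKO (95% interval 2.29 to 4.46) and Sp6+Sp8 cKO 4.63-fold below it (3.26 to 6.69). Rps16-ps2, with 41, 17, 17 and 43 counts, was 2.12-fold higher in the Sp6+Sp8 cKO library than in that of Sp6 cKO (1.18 to 3.97). Against wildtype, Rpl15-ps2 was 2.10-fold higher in Sp8 cKO (1.45 to 3.04), Rpl34-ps1 2.07-fold lower in the same library (1.63 to 2.66) and Rps12-ps3 2.37-fold lower in Sp6 cKO (1.38 to 4.31). Rps16-ps2 and Rps12-ps3 are identical to the coding sequence of their parents, and these intervals leave out how shared fragments were divided.

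The remaining 8 pseudogenes were within the rule in all 6 comparisons. Among them were Rpl10-ps3, Rpl14-ps1, Rpl17-ps8, Rpl19-ps11, Rpl23a-ps3, Rps2-ps11 and Rps6-ps4. The annotation lists Rpl10-ps3, like Rps12-ps3, as protein-coding. Rpl10-ps3 was at 13.7, 13.3, 12.5 and 11.96 CPM and Rpl19-ps11 at 5.197, 5.51, 5.08 and 5.72. Rps6-ps4, identical to the coding sequence of Rps6, the substrate of S6 kinase, was at 2.90, 2.95, 2.78 and 3.57 CPM. Rpl17-ps8, X-linked, was at 13.9, 11.6, 14.4 and 13.4.

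Predicted genes that match a parent differed between libraries as well. With 100 or more counts there were 21, of which 3 were lower than wildtype past the rule in each cKO library, 1 was higher in each, 8 differed in some and 9 in none. In a single comparison with wildtype, 2.24% to 2.84% of all genes were higher and 1.55% to 2.95% lower. These genes too were picked by summed counts, and the 3 lower in each library reached 100 through wildtype alone. Gm10240 and Gm13370, both matched to Rpl21, had 258 counts each in wildtype and 0 in the others, and Gm10243, matched to Rpl35a, had 349 and 0. Gm10240 and Gm13370 are each 483 bases long and 99.6% identical to Rpl21. Every 150-base stretch of each also occurs in another annotated transcript, so their equal counts need not be separate observations. Gm10163, a further Rpl21 copy, had 0 counts in wildtype and 179, 114 and 31 in the cKO libraries. It was at least 101-fold higher in Sp6 cKO and at least 14.6-fold higher in Sp6+Sp8 cKO, set against 3 counts in wildtype. Every 150-base stretch of Gm10163 and of Gm10243 also occurs in another annotated transcript, and these folds leave out how shared fragments were divided. The Rpl21 family as a whole was at 336, 330, 353 and 323 CPM.

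Within batch 1 the predicted genes also moved. Gm15772, the copy of Rpl26, had 2757, 203, 1638 and 875 counts, or 127, 15.7, 130 and 56.9 CPM, low in Sp6 cKO where Rpl26 was high. It was 8.26-fold higher in Sp8 cKO than in Sp6 cKO (95% interval 7.14 to 9.61). Gm8210 had 46.9, 35.7, 7.38 and 5.07 CPM and Gm13841 35.8, 10.1, 29.9 and 26.5 CPM, so the pair of Rpl29 copies took opposite orders in Sp6 cKO and the other cKO libraries. Every 150-base stretch of Gm8210 and of Gm13841 also occurs in another annotated transcript, so their levels need not be separate observations. Gm6472, the X-linked copy of Rps7, was at 96.9, 35.1, 30.1 and 103 CPM.

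Adding the copies to the parent gave family levels. Families here are a core parent, its named pseudogenes of any count, the retrocopies and the matched predicted genes. The Rpl3 family was at 591, 592, 589 and 580 CPM, although copies made up 30.8%, 3.33%, 4.88% and 0.90% of it. The Rps2 family was at 227, 217, 231 and 201 CPM with copies at 29.4%, 51.3%, 43.4% and 60.2%. For Rpl26 the family was at 264, 277, 264 and 247 CPM and the copies at 48.3%, 5.94%, 50.0% and 24.03%. The Rpl35a family was at 84.9, 85.9, 81.2 and 84.7 CPM, and the Rps3a1 family at 917, 946, 958 and 975.

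**Figure D3:**
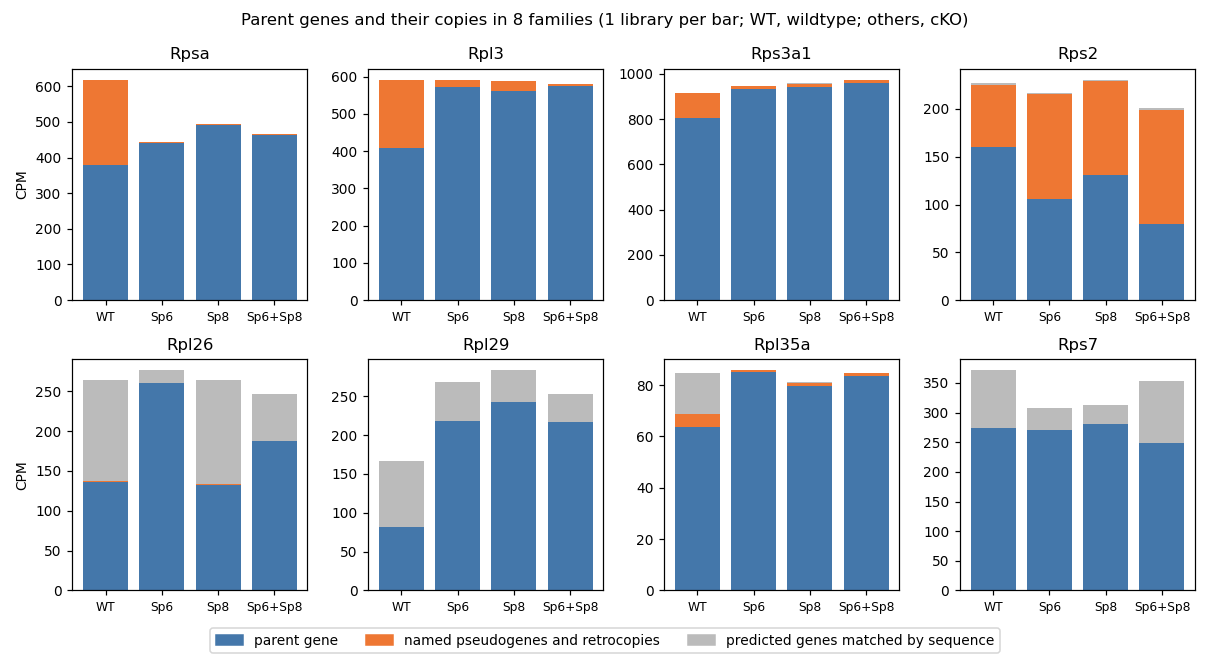
CPM of 8 families in the 4 libraries (1 bar per library), divided into the parent gene, its named pseudogenes or retrocopies, and predicted genes matched by sequence. The total bars of Rpl3, Rps2, Rpl26 and Rpl35a are of nearly equal height while their parts shift, whereas the Rpsa total is highest in wildtype (619 CPM) and the Rpl29 total lowest there (166 CPM).

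The sums did not level in every family. The Rpsa family was at 619, 444, 494 and 465 CPM, with copies at 38.6% in wildtype and 0.39% to 0.54% in the others. Its family log2 ratios to wildtype were -0.48, -0.32 and -0.41, where those of the parent alone were 0.22, 0.37 and 0.28. The Rpl29 family was at 166, 268, 284 and 253 CPM with copies at 50.8%, 18.8%, 14.5% and 14.3%. Its log2 ratios of 0.69, 0.77 and 0.60 lay below the 1.41, 1.57 and 1.40 of the parent, and against wildtype it was the 1 family past 1.5-fold. The Rps7 family spread more than its parent did, at 372, 307, 313 and 353 CPM against 274, 270, 281 and 248 CPM for Rps7 alone.

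Over the 74 core families, the standard deviation of the log2 ratios fell when copies were added. It was 0.27 for parents alone and 0.16 for families in Sp6 cKO against wildtype, 0.24 and 0.16 in Sp8 cKO, and 0.29 and 0.18 in Sp6+Sp8 cKO. Within batch 1 it was 0.15 and 0.08 for Sp8 cKO against Sp6 cKO, 0.13 and 0.12 for Sp6+Sp8 cKO against Sp6 cKO, and 0.17 and 0.14 for Sp6+Sp8 cKO against Sp8 cKO. Rpl29, the highest in each comparison with wildtype, went from 1.41, 1.57 and 1.40 for the parent to 0.69, 0.77 and 0.60 for the family. The standard deviation without Rpl29 was not computed. No family reached a fold of 2 in any comparison. Copies made up at least 10% of the family in some library for 13 families. In these the highest library was a median of 1.30-fold above the lowest for the parent and 1.15-fold for the family, and in the 61 others the medians were 1.13 for both. The range narrowed with the copies in 46 of 74 families, 9 of the 13 among them.

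**Figure D4:**
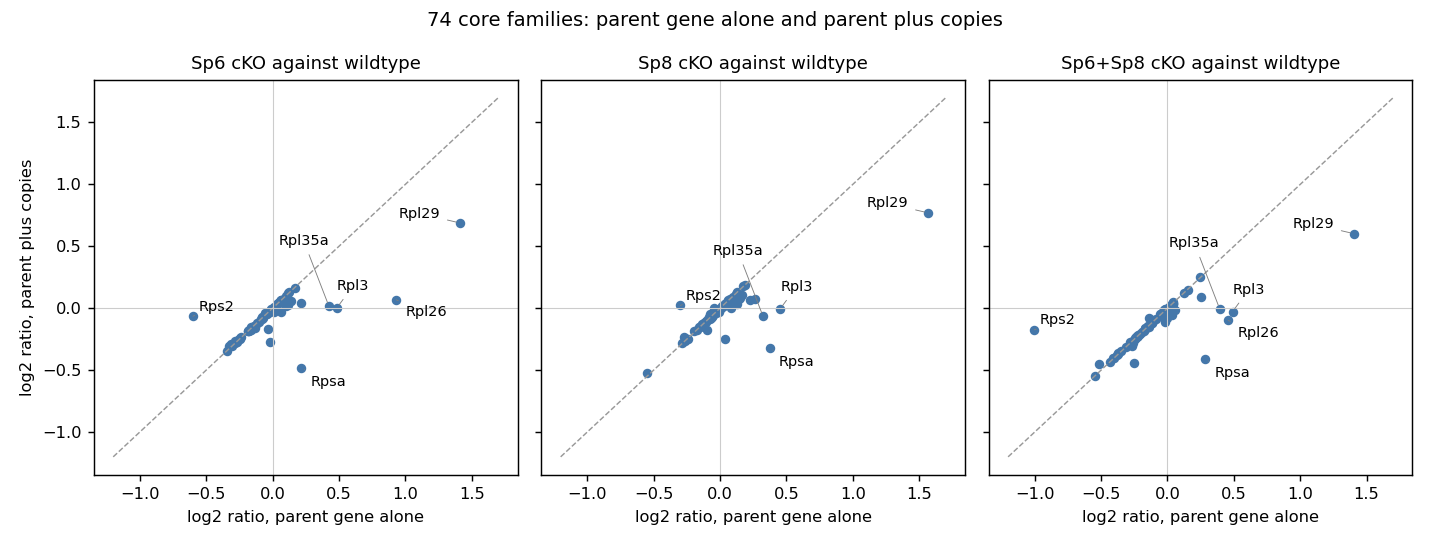
Log2 ratio to wildtype of each of the 74 core families, with the parent gene alone on the x axis and the parent plus its copies on the y axis; the dashed line marks equal values. Rpl26, Rpl3, Rpl35a and Rps2 lie near 0 on the y axis, Rpsa below it, and Rpl29 between 0.60 and 0.77.

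Identity of the copies lower in all 3 cKO libraries overlapped that of the others, a comparison limited by the 95% identity asked of predicted genes. The 12 such copies, counting named pseudogenes, retrocopies and predicted genes, had a median identity to the parent of 99.5% (98.9% to 99.8%), and the 32 others 99.6% (95.4% to 100%). The share of 150-base stretches of the copy that another annotated transcript also contains was a median of 70.5% and 63.8%. An annotated gene enclosed 5 of the 12, 2 of them on the same strand, and 18 of the 32. On the X chromosome lay 3 of the 12 and 2 of the 32. Xist, the RNA of the inactive X chromosome, was at 1526, 1963, 27.9 and 3528 CPM, so the Sp8 cKO library stood apart from the 3 others. The X-linked Rpl3-ps1, Rps2-ps13 and Rps24-ps3 are given by library above, and the part of this difference in their levels was not tested.

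**Figure D5:**
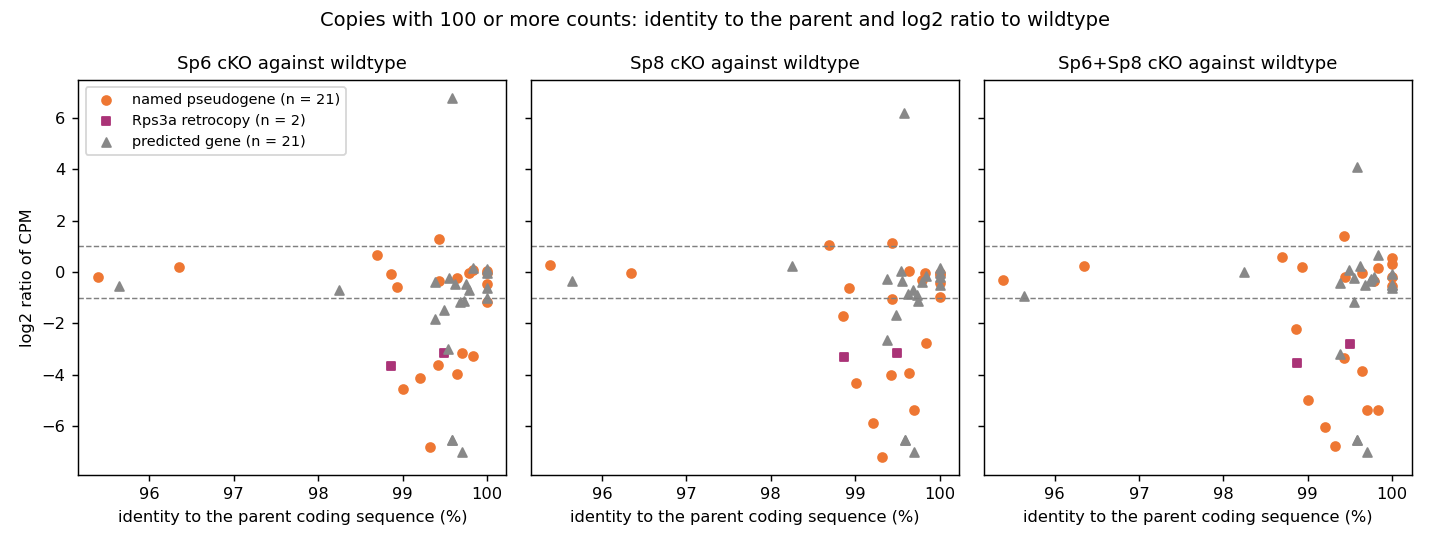
Identity of 44 copies to the coding sequence of the parent (x axis, percent) and log2 ratio of CPM to wildtype (y axis) in the 3 cKO libraries, 1 point per copy; dashed lines mark a log2 ratio of 1 in either direction. Copies far below 0 have identities between 98.9% and 99.8%, and copies of the same identity also lie between the dashed lines.

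Base composition was set beside the log2 ratios of the parents. Over the 74 core genes the Spearman correlation of transcript GC content with the log2 ratio was 0.46 for Sp8 cKO against Sp6 cKO and -0.42 for Sp6+Sp8 cKO against Sp8 cKO, and weaker, at -0.16, for Sp6+Sp8 cKO against Sp6 cKO and at -0.12, 0.05 and -0.21 against wildtype. The genes share their libraries, and these are descriptions. Over 9554 other protein-coding genes it was 0.13, -0.37, -0.30, -0.06, 0.05 and -0.32 in the same order. Its part in the differences of single parents was not tested.

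Few genes that work beside the ribosomal proteins passed the size rule, which few of all genes pass. The stalk proteins Rplp0, Rplp1 and Rplp2 and the ubiquitin-like fusion Fau, which the name rule does not reach, were within the size rule in the 6 comparisons, with Rplp0 at 1117, 1173, 1274 and 1032 CPM. None of 20 translation factors and other messages with a terminal oligopyrimidine tract passed it, nor any of 8 small nucleolar RNA host genes or 41 genes of ribosome biogenesis and RNA polymerase I. Single host genes ranged from -0.78 to 0.61 on the log2 scale over the 6 comparisons and biogenesis genes from -0.71 to 0.66, the latter with a median of 0.17 in Sp6+Sp8 cKO against Sp8 cKO. Of 77 mitochondrial ribosomal protein genes 1 passed, Mrps12 in Sp6+Sp8 cKO against Sp8 cKO at -1.07. Of 22 named pseudogenes of other genes, also picked at 100 or more counts, 1, 1 and 1 were higher and 6, 2 and 1 lower than wildtype past the rule, among the lower ones H2-Ea-ps with 119, 8, 7 and 11 counts. Of 149 predicted processed pseudogenes picked in the same way, 5, 5 and 6 were higher and 11, 12 and 9 lower, beside 2.24%, 2.27% and 2.84% of all genes higher and 2.16%, 1.55% and 2.95% lower. Within batch 1, 7, 14 and 13 of them were past the rule in either direction, beside 3.1%, 3.97% and 4.68% of all genes.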

How the data were processed

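The authors deposited estimated counts per gene, without scaling for sequencing depth. Build GRCm38 and the tools STAR, Salmon, featureCounts, edgeR, deepTools and Trim Galore 0.6.4 are named by the submitters' processing notes. The role of each tool, its settings and the annotation release: not given in the sources used here. A further 1 column matched no listed sample and was not used. Counts were rounded and scaled with TMM factors of edgeR 4.0.16 (R 4.3.3), with DESeq2 1.42.0 size factors as an alternative. Intervals cover counting error only, and PCR duplicates are not independent molecules. They take the rounded estimated counts as observed, so the uncertainty of dividing fragments between parent and copy is left out. Folds against 0 counts were set against 3 counts. Positions, types and sequences came from GENCODE M21, in which 98.8% of gene identifiers were found. Copies were matched with blastn 2.17.0. The members, lists and rules were chosen with earlier results of these data known. Members named were parents past the size rule, the highest and lowest core genes by level and by ratio, and the pseudogenes and families with the largest differences or shares; predicted genes named were chosen after their values were seen. The size rule and the intervals were tested on simulated counts drawn for each gene on its own. That simulation had no fragments shared between genes and no variation beyond counting. A few genes are not reported here. Alternatives were other scalings, CPM minimums, prior counts, folds and member sets.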

Additional observations from a re-analysis of the deposited data

How the results depend on the processing

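The 4 libraries hold 1 sample per genotype, so no replicate could be left out. No paired analysis was possible because each group has 1 library and no test was run. Depth limits counts of a few reads, and the deeper wildtype library favours copies seen only there. The other settings moved scaling by at most 0.049 on the log2 scale, and no member or count past the size rule changed direction. The small sums of parents against wildtype and Sp6 cKO in Sp6+Sp8 cKO changed sign, as given below. A count of members was taken as changed if it differed by more than 1.5-fold or moved to or from 0. Smaller changes are not listed. Among these, Rps2 left the parent count in Sp6+Sp8 cKO against wildtype with DESeq2 size factors, library totals and totals without the 20 most abundant genes. Of the counts of members past the size rule, those of parents changed with a fold of 1.5 (6 in Sp6 cKO against wildtype, and 1 in Sp8 cKO against Sp6 cKO and in Sp6+Sp8 cKO against Sp8 cKO) and, in a set added after seeing the data, for core parents without retrocopies (1, 1 and 2 in the 3 comparisons with wildtype). Pseudogene counts became 3, 5 and 4 against wildtype with at least 500 summed counts. In Sp8 cKO against Sp6 cKO they became 3 with no CPM minimum and 3 with at least 20 summed counts, in Sp6+Sp8 cKO against Sp6 cKO 5 and 6, and in Sp6+Sp8 cKO against Sp8 cKO 2 with library totals, with totals without the 20 most abundant genes, with a prior count of 0.5 and with at least 20 summed counts. These changes came with other sets, limits, scalings and prior counts, and their cause was not tested.

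Summed pseudogenes with at least 20 counts were at -1.491, -1.586 and -1.543 against wildtype. Sums of parents and of parents with pseudogenes have counting intervals so narrow that small shifts leave them. With library totals, parents were at 0.009 in Sp6 cKO and 0.008 in Sp6+Sp8 cKO against wildtype, at 0.042 (Sp8 cKO) and -0.002 (the double cKO, Sp6+Sp8) against Sp6 cKO, and at -0.043 in Sp6+Sp8 cKO against Sp8 cKO; with pseudogenes these were -0.024, -0.025, 0.041, -0.002 and -0.042. With totals without the 20 most abundant genes, parents were at 0.053 (Sp8 cKO) and 0.026 (the double cKO) against wildtype, at 0.034 and 0.007 against Sp6 cKO and at -0.027 against Sp8 cKO; with pseudogenes these were 0.019, -0.007, 0.033, 0.007 and -0.026. With DESeq2 size factors, Sp6+Sp8 cKO was at -0.007 against wildtype, -0.033 against Sp6 cKO and -0.05 against Sp8 cKO for parents, and at -0.041, -0.033 and -0.049 with pseudogenes. With all named pseudogenes and matched predicted genes, added after seeing the data, the joint sum was at -0.032, -0.002 and -0.066 against wildtype and at -0.033 in Sp6+Sp8 cKO against Sp6 cKO. Core families past 1.5-fold numbered 3, 1, 2, 1, 0 and 1 in the 6 comparisons for the parent alone. With named copies the counts became 2, 1, 1, 1, 0 and 0, that is 1 in Sp6+Sp8 cKO against wildtype and 0 in Sp6+Sp8 cKO against Sp8 cKO. With predicted copies as well they became 1 in Sp6 cKO and in Sp6+Sp8 cKO against wildtype, 0 in Sp8 cKO against Sp6 cKO and 0 in Sp6+Sp8 cKO against Sp8 cKO.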
